A study of Mus musculus with 8 samples.

Results

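A set of 10 antibody genes was followed in the jejunal mucosa of 8 mice: the heavy chain constant region genes Igha, Ighm, Ighd, Ighg1 and Ighg2b, the light chain constant region genes Igkc and Iglc1, the J chain gene Jchain, the antibody transporter gene Pigr and the plasma cell chaperone gene Mzb1. They were chosen by name, for their place in making and secreting immunoglobulin A (IgA), with earlier results of these data known. They are 10 of the 56980 genes in the count files. All 10 were found by symbol, and 9 of the 10 had enough reads to be tested.

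An antibody is built from heavy and light chains, each with a variable part that binds antigen and a constant part that sets its class. A naive B cell makes IgM and IgD, encoded by Ighm and Ighd. Class switching then brings another constant region gene, such as Igha, behind the variable segment. In the small intestine most plasma cells lie in the lamina propria and make IgA, which the J chain joins into dimers. The receptor encoded by Pigr takes up the dimers at the base of the epithelial cells and carries them into the lumen.

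The mice were males of 2 genotypes. In Adipoq-F2-KO mice (n = 4) the free fatty acid receptor FFA2 was removed by a Cre recombinase driven by the adiponectin promoter, which is active in adipocytes. Their floxed littermates (FFA2 fl/fl, n = 4) were the controls, so both genotypes carried the floxed allele. Both genotypes were housed together from birth on chow, moved at 12 weeks of age to a Western diet with 10% fructooligosaccharides (WD + FOS), a fermentable fibre, and kept on it for 2 weeks at thermoneutrality. Mucosa was scraped from the opened jejunum, so every library is a mixture of epithelium and lamina propria. In such bulk RNA, fewer cells of a type and less RNA per cell cannot be told apart. The comparison asked whether loss of FFA2 in fat was accompanied by a difference in the gut's antibody genes.

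The libraries held between 6007654 and 21712776 counts, and 5 of the 8 were above 10000000. Ffar2, the gene of FFA2, had 2 to 18 counts in every library of both genotypes, and since the deletion is in adipocytes it does not check the labels in this tissue. All 12 villus enterocyte markers were measured, and their summed normalized counts were 701909 to 745664 in the floxed controls and 698489 to 775934 in Adipoq-F2-KO. The 12 smooth muscle markers varied far more, from 3823 to 33624 in the floxed controls and from 4214 to 13719 in Adipoq-F2-KO. A normalized count here is a read count divided by the DESeq2 size factor of its library.

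The heavy chain genes lie in a row on the minus strand of chromosome 12 of mouse assembly GRCm38, as GENCODE M21 annotates them. Ighm spans chr12:113418558-113422730 and Ighd chr12:113406604-113416324. Ighg1 follows at chr12:113325240-113330523 and Ighg2b at chr12:113302965-113307933. Igha is the last, at chr12:113254830-113260236. Igkc, which encodes the kappa constant region in 1 exon, lies at chr6:70726435-70726966 on the plus strand. Iglc1, a lambda constant region gene of 1 exon, lies at chr16:19061618-19062071 on the minus strand. Jchain spans chr5:88519809-88527891 on the minus strand and Pigr chr1:130826684-130852249 on the plus strand.

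Several constant region genes are near copies of each other, so it matters whether a read of 75 bases can tell them apart. Below are 75 bases from the start of each constant region, from GENCODE M21 transcripts, read 5′ to 3′ along the gene. They begin with the first annotated base, except in Iglc2, where 1 base was skipped to align it. In each family, capitals mark the positions at which its 3 genes do not all have the same base. The lambda set is shown because Iglc1 has relatives that also gave reads, Iglc2 and Iglc3. They lie at chr16:19061997-19062071, chr16:19198778-19198852 and chr16:19065607-19065681, all on the minus strand.
Iglc1: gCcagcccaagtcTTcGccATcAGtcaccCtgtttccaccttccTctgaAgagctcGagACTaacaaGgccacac
Iglc2: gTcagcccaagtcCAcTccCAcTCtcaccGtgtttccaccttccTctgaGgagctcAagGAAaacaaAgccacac
Iglc3: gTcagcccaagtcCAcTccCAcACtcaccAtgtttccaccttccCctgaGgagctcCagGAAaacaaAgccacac

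In this stretch Iglc1 differed from Iglc2 at 15 of 75 bases and from Iglc3 at 15, whereas Iglc2 and Iglc3 differed from each other at 4. No window of 75 bases in Iglc1 occurred in the annotated transcripts of another gene, while 0.931% of the windows of Iglc2 occurred in Iglc3. Shorter trimmed reads and reads with mismatches were not examined. The gamma genes are shown for the same reason, with Ighg2c as a close relative of Ighg2b. They lie at chr12:113330449-113330523, chr12:113307859-113307933 and chr12:113288858-113288932 on the minus strand.
Ighg1: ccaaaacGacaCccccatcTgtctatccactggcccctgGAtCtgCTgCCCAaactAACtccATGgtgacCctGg
Ighg2b: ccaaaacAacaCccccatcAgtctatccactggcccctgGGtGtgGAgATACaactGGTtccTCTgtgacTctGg
Ighg2c: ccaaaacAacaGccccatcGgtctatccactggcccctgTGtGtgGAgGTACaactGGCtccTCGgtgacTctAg

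Ighg1 differed from Ighg2b at 17 of these 75 bases, and Ighg2b from Ighg2c at 7. Over the whole gene 0.768% of the windows of Ighg2b were shared with Ighg2c or Ighg3, and none of the windows of Ighg1, Ighm, Ighd, Igha, Igkc or Jchain was shared with any gene. The starts of the 2 most abundant chains, the alpha heavy chain at chr12:113260162-113260236 on the minus strand and the kappa light chain at chr6:70726435-70726509 on the plus strand, are given as the members on which most of the values turn, with no capitals because they are not compared.
Igha: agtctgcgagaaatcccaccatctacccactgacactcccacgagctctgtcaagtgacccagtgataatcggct
Igkc: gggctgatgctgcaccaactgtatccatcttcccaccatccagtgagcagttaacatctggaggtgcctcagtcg

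Igha was by far the main heavy chain gene in both genotypes, and Igkc the main light chain gene. None of the 9 tested genes differed between genotypes in the DESeq2 fit (0 of 9 with an adjusted p below 0.05, against 0.0375% of all 15986 tested genes). At an unadjusted p below 0.05 the count was also 0 of 9 in DESeq2, where 3.03% of all tested genes passed, and 0 of 9 in edgeR's quasi-likelihood test, where 3.48% passed. In limma-voom Ighd alone had an unadjusted p below 0.05 (adjusted p = 0.974), where 4.3% of all tested genes passed. The limma-voom estimates of every chain gene and of Jchain were larger than those of DESeq2 given below. On the log2 scale they were 2.44 for Ighd, 1.57 for Ighg1, 1.53 for Ighm and 1.17 for Ighg2b. They were 0.60 for Igkc, 0.55 for Jchain, 0.43 for Igha and 0.32 for Iglc1. For none of the 9 did the 2 groups of libraries fail to overlap, against 2.12% of all tested genes. On the log2 scale 8 of the 9 estimates were above 0 (median 0.36), where 48.5% of all tested genes were, with a median of −0.01. The antibody chain genes move together from mouse to mouse, as shown further on, so these estimates are not 8 separate observations.

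The IgA heavy chain gene Igha had normalized counts of 5821, 13456, 4776 and 2267 in floxed libraries 1 to 4. In Adipoq-F2-KO libraries 1 to 4 it had 4519, 7940, 9256 and 8861. Floxed library 2 was the highest of all 8 and floxed library 4 the lowest, so the whole range of the knockouts lay inside that of the controls. The controls had a mean of 6580 ± 4820 and the knockouts one of 7644 ± 2155 (SD, n = 4 each). The fold was 1.16 with a 95% interval from 0.547 to 2.47, and the log2 fold change of 0.22 (SE 0.55) did not pass (DESeq2, adjusted p = 0.9998). Within the floxed controls alone the highest library was 5.94 times the lowest, and within Adipoq-F2-KO 2.05 times.

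Igkc supplies the light chain of most mouse antibodies. It had 2935, 6983, 3020 and 998 normalized counts in the floxed controls and 2551, 4523, 5376 and 5497 in Adipoq-F2-KO. Floxed libraries 2 and 4 were again the highest and the lowest. Its log2 fold change was 0.36 (SE 0.58, DESeq2 adjusted p = 0.9998).

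Jchain, whose product links IgA monomers and is bound by the transport receptor, had 923, 2573, 968 and 371 normalized counts in the floxed controls. In Adipoq-F2-KO it had 901, 1433, 1922 and 1777. The same floxed libraries were the extremes, and the groups overlapped. The log2 fold change was 0.32 with a 95% interval from −0.84 to 1.48 (SE 0.59, DESeq2 adjusted p = 0.9998).

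Ighm, the heavy chain of IgM and of the receptor on naive B cells, had 37.6, 243, 130 and 25.5 normalized counts in the floxed controls and 122, 366, 116 and 348 in Adipoq-F2-KO. Knockout libraries 2 and 4 were above every control and 2 of the 4 controls were below every knockout. The log2 fold change of 1.13 (SE 0.81, 95% interval −0.45 to 2.71) did not pass (DESeq2 adjusted p = 0.9998). Ighd, which is spliced from the same transcript as Ighm in naive B cells, was near the detection floor of 3 counts in floxed libraries 1 and 4, with 5 and 2 raw counts. Its normalized counts were 3.03, 88.5, 33.5 and 1.55 in the floxed controls and 26.8, 133, 42.0 and 82.7 in Adipoq-F2-KO. A log2 fold change of 1.17 had the widest error of the 9 genes (SE 1.17, DESeq2 adjusted p = 0.9998).

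The gamma genes encode IgG, the main class in blood but a minor one in gut mucosa. Ighg1 had 1.21, 37.9, 6.27 and 2.32 normalized counts in the floxed controls, where 3 of the 4 libraries were at or under 3 raw counts. In Adipoq-F2-KO it had 8.68, 34.7, 28.0 and 9.40. Ighg2b had 11.5, 104, 20.9 and 7.74 in the floxed controls and 26.1, 93.6, 34.0 and 92.1 in Adipoq-F2-KO. In both genes 3 of the 4 controls lay below every knockout, while floxed library 2 lay above all of them. The log2 fold changes were 0.73 (SE 0.93) for Ighg1 and 0.75 (SE 0.73) for Ighg2b, and neither passed (DESeq2 adjusted p = 0.9998 for both).

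Iglc1 encodes the most used lambda constant region of these mice and stood at 238, 903, 253 and 122 normalized counts in the floxed controls. In Adipoq-F2-KO it stood at 407, 298, 374 and 472. Here again 3 of the 4 controls were below every knockout and floxed library 2 was above all of them, so that the group means were nearly the same, 379 (SD 354, n = 4) and 388 (SD 72.2, n = 4). Its log2 fold change was 0.03 (SE 0.63, 95% interval −1.20 to 1.26, DESeq2 adjusted p = 0.9998).

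Pigr, the gene of the polymeric immunoglobulin receptor, belongs to the epithelium and not to the antibody-making cells. It was the steadiest of the 10 genes. It had 50719, 48841, 62605 and 52035 normalized counts in the floxed controls and 59227, 46120, 55871 and 51492 in Adipoq-F2-KO. The lowest library was a knockout and the highest a control, and the others lay between them. The controls had a mean of 53550 ± 6177 and the knockouts one of 53177 ± 5672 (SD, n = 4 each). The log2 fold change was −0.01 (SE 0.12, DESeq2 adjusted p = 0.9998), and its 95% interval, from 0.844 to 1.17 as a fold, is much narrower than that of Igha.

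Mzb1, a chaperone of the endoplasmic reticulum that helps B and plasma cells to secrete antibody, was not tested. It had raw counts of 3, 3, 0 and 2 in the floxed controls and 0, 3, 0 and 1 in Adipoq-F2-KO, which is at or under the floor of 3 counts in all 8 libraries, so no difference was detectable at this depth. On chromosome 18 it shares 695 exon bases, 57.2% of its exon length, with SPATA24 on the same strand, and 51.4% of its 75-base windows occur there too. SPATA24 itself had 0 counts in all libraries. How a read lying in exons of both genes was counted is not given in the sources used here.

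**Figure D1:**
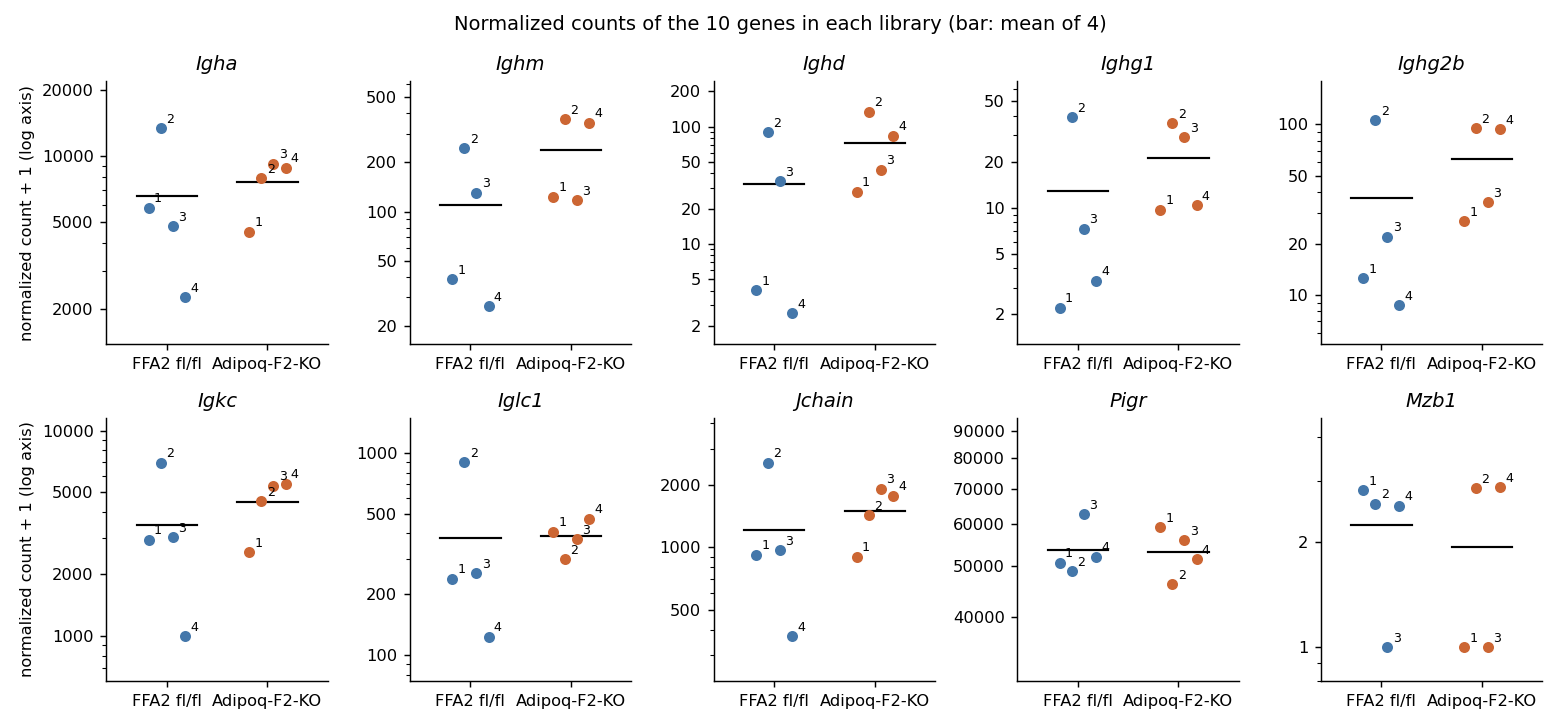
Normalized count plus 1 (log axis) of each of the 10 genes in every library, with the library number beside each point and the mean of the 4 libraries as a bar. Floxed library 2 is the highest control for the 7 chain genes and Jchain, whereas Pigr lies between 46120 and 62605 in all 8 libraries.

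The result for Igha, Igkc, Jchain and Iglc1 turned on floxed libraries 2 and 4, their extremes among the controls. Without floxed library 2, the deepest one, the log2 fold change was 0.83 (SE 0.30) for Igha, 1.00 (SE 0.32) for Jchain, 0.93 (SE 0.26) for Iglc1 and 0.95 (SE 0.49) for Igkc. Their adjusted p-values were 0.766, 0.400, 0.206 and 0.9999 in DESeq2. Ighg2b reached 2.29 (SE 0.55), the only member past the threshold in any alternative (DESeq2 adjusted p = 0.0405), in a fit where 0.119% of 15107 tested genes passed. At an unadjusted p below 0.05, 6 of the 8 members tested in it passed, against 3.05% of all genes. Floxed library 2 was the highest control for each of the 6. These genes move together from mouse to mouse, so they are not 6 separate observations. Ighm and Ighd stood at 1.91 (SE 0.76) and 2.57 (SE 1.14) without passing after adjustment. Ighg1 had too few counts to be tested, and Pigr was at −0.05 (SE 0.14). Leaving out floxed library 4 moved the estimates the other way. Igha was then at −0.07 (SE 0.44), Igkc at 0.06 (SE 0.45), Jchain at 0.02 (SE 0.49) and Iglc1 at −0.27 (SE 0.55). Ighm was at 0.80, Ighd at 0.77, Ighg1 at 0.38 and Ighg2b at 0.41, and none passed. For the IgM, IgD and IgG genes, leaving out another library lowered the estimates about as far or farther. Without floxed library 1, Ighm was at 0.84, Ighg1 at 0.34 and Ighg2b at 0.45. Without Adipoq-F2-KO library 2, Ighm was at 0.84 and Ighd at 0.67. Among the 5 libraries above 10000000 counts, which include floxed library 2, Igha was at −0.21, Jchain at −0.15, Igkc at −0.04 and Iglc1 at −0.26, while Ighm was at 1.25 and Ighg2b at 0.53. None of these 6 passed, and Ighd and Ighg1 had too few counts to be tested.

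**Figure D2:**
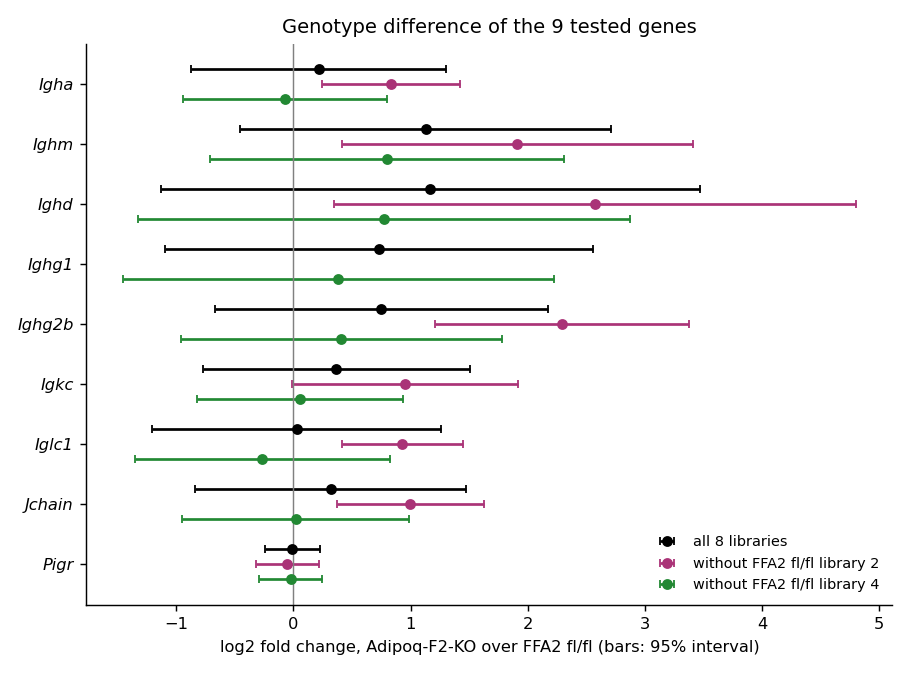
Log2 fold change of Adipoq-F2-KO over FFA2 fl/fl for the 9 tested genes, with 95% intervals, in all 8 libraries (black), without floxed library 2 (purple, not available for Ighg1) and without floxed library 4 (green). All black and green intervals include 0, and the black one of Pigr, from −0.24 to 0.22, is the narrowest.

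The make-up of the antibody RNA within a library does not depend on library size. Igha gave 99.1%, 96.5%, 96.1% and 98.4% of the counts of all heavy chain constant region genes in floxed libraries 1 to 4. In Adipoq-F2-KO libraries 1 to 4 it gave 96.0%, 92.6%, 97.6% and 94.2%. Below every control were 3 of the 4 knockouts, and the highest knockout was inside the range of the controls. The mean share was 97.5% ± 1.44 for the controls and 95.1% ± 2.18 for the knockouts (SD, n = 4 each), a difference of −2.41 percentage points that did not pass (exact permutation test, two-sided, p = 0.114, adjusted over 5 ratios 0.381; the smallest p this design allows is 0.0286). Without Adipoq-F2-KO library 3 the difference was −3.26 points and p was 0.0286 in the exact permutation test, the smallest it can give. This p was not adjusted over the 5 ratios. Without Adipoq-F2-KO library 2 it was −1.57 points (exact permutation p = 0.229), and without floxed library 1 it was −1.89 (exact permutation p = 0.229). In the 5 libraries above 10000000 counts it was −3.71 points (exact permutation p = 0.20). Counting error was small beside this: the 95% binomial interval (Wilson) ran from 98.9% to 99.3% in floxed library 1 and from 92.1% to 93.0% in Adipoq-F2-KO library 2.

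The rest of the heavy chain counts was mostly Ighm, at 0.639% to 4.27% of the total, with Ighd at 0.0516% to 1.55% and Ighg2b at 0.196% to 1.09%. The share of Ighg2b was above that of Ighd in 4 of the 8 libraries. Ighg1 made up 0.0206% to 0.405%. The 4 gamma genes together gave 0.596% ± 0.386 of the total in controls and 1.08% ± 0.401 of it in knockouts (SD, n = 4 each), values that were not tested. Ighm had between 2.74 and 4.56 counts per count of Ighd in the 6 libraries other than floxed 1 and 4, where Ighd was near its floor.

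Among light chain counts the kappa gene Igkc gave 91.7%, 86.2%, 91.4% and 86.7% in the floxed controls and 84.6%, 90.2%, 92.4% and 88.4% in Adipoq-F2-KO. The highest and the lowest library were both knockouts. The means were 89.0% ± 2.94 and 88.9% ± 3.27 (SD, n = 4 each; exact permutation test, two-sided, p = 1, adjusted over 5 ratios 1). Iglc1 held 89.3%, 80.9%, 89.0% and 79.8% of the lambda counts in the floxed controls. In Adipoq-F2-KO it held 87.7%, 60.5%, 84.2% and 65.2%, and in the libraries with the lower shares the rest came mainly from Iglc3, with 233 raw counts in Adipoq-F2-KO library 2 and 88 in library 4.

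**Figure D3:**
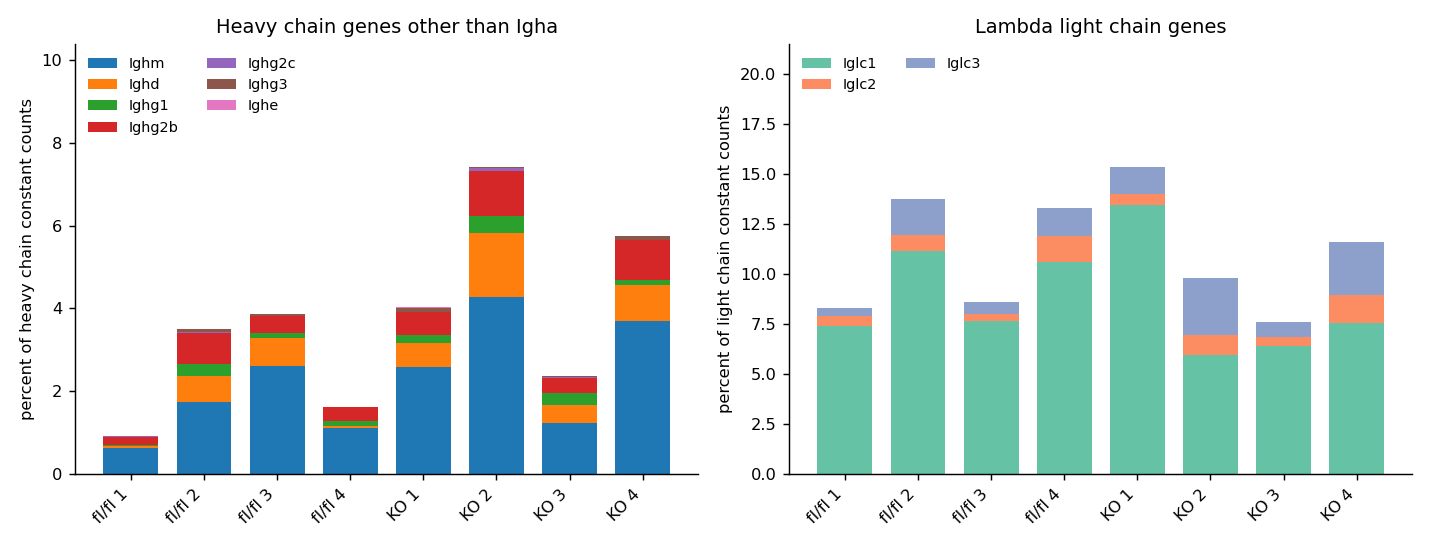
Left, percent of heavy chain constant region counts from each gene other than Igha in every library. Right, percent of light chain constant region counts from the 3 lambda genes. Bars start at 0. The heavy chain bars reach 0.918% in floxed library 1 and 7.42% in Adipoq-F2-KO library 2.

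Jchain kept a nearly constant ratio to Igha. There were 0.159, 0.191, 0.203 and 0.164 counts of Jchain per count of Igha in the floxed controls and 0.200, 0.181, 0.208 and 0.201 in Adipoq-F2-KO, a coefficient of variation of 9.86% over all 8 libraries over which the normalized count of Igha ran from 2267 to 13456. On the log2 scale the ratio was −2.49 ± 0.17 for the controls and −2.34 ± 0.09 for the knockouts (SD, n = 4 each; exact permutation test, two-sided, p = 0.229, adjusted 0.381). The difference of 0.14 ran from 0.087 without floxed library 1 to 0.21 without floxed library 3, and neither passed (exact permutation p = 0.429 and 0.0857). Igkc per Igha ranged from 0.440 to 0.632. Igha over a plasma cell reference of Jchain, Mzb1 and Tnfrsf17 was 8.48 ± 0.37 against 8.89 ± 0.42 on the log2 scale (exact permutation p = 0.229, adjusted 0.381). Of that reference Mzb1 was at or under 3 counts in every library and Tnfrsf17, the plasma cell survival receptor BCMA, had 0 to 8, so the size and the direction of this value come from genes at or near the floor. With Jchain and Tnfrsf17 as the reference the difference was 0.19, and with the full reference in the 5 libraries above 10000000 counts it was 0.16, in place of 0.42. Pigr over 6 epithelial genes (Epcam, Krt8, Krt18, Krt19, Cdh1 and Vil1) was 2.82 ± 0.18 for the controls and 2.77 ± 0.14 for the knockouts (SD, n = 4 each; exact permutation p = 0.686, adjusted 0.857).

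From mouse to mouse the IgA genes moved together. Over the 8 libraries, Igha correlated with Jchain on the scale of log2(normalized count + 1) at Pearson's r = 0.989 (exact permutation p = 1.2e-04, adjusted over 6 relations 3.7e-04; Spearman's rho = 0.976, adjusted p = 0.0024). Floxed libraries 2 and 4 are those farthest from the median of Igha, and without this pair r was 0.955 (exact permutation p = 0.0236). With Igkc, r was 0.985 (exact permutation p = 9.9e-05, adjusted 3.7e-04; rho = 0.952, adjusted p = 0.0034) and 0.971 without those libraries (exact permutation p = 0.0153). Within the floxed controls r was 0.991 for Jchain and 0.985 for Igkc. Within Adipoq-F2-KO the values were 0.984 and 0.995, and in the 5 libraries above 10000000 counts they were 0.992 and 0.993. These values were not tested.

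No relation between the transporter and the antibody was detected. Igha and Pigr had r = −0.37 (exact permutation p = 0.370, adjusted 0.443; rho = −0.48, adjusted p = 0.292), and r = −0.60 without floxed libraries 2 and 4 (exact permutation p = 0.196). Igha and Ighm had r = 0.742, which did not pass after adjustment (exact permutation p = 0.0349, adjusted 0.0699; rho = 0.50, adjusted p = 0.292) and was 0.471 without floxed libraries 2 and 4 (exact permutation p = 0.336). It rested on floxed library 4, since r was 0.504 without it (exact permutation p = 0.247) and 0.734 without floxed library 2 (exact permutation p = 0.0708). With the smooth muscle score, the mean of centred log2 values over the 12 markers, Igha had r = 0.481 (exact permutation p = 0.228, adjusted 0.342; rho = 0.476, adjusted p = 0.292), and 0.162 without the extremes (exact permutation p = 0.742). Leaving out floxed library 3, which has the highest smooth muscle score, gave r = 0.806 (exact permutation p = 0.020). In the 5 libraries above 10000000 counts r was 0.83, a value that was not tested. With Mzb1, r was 0.140 (exact permutation p = 0.751, adjusted 0.751; rho = 0.317, adjusted p = 0.449), a value between counts at the floor.

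**Figure D4:**
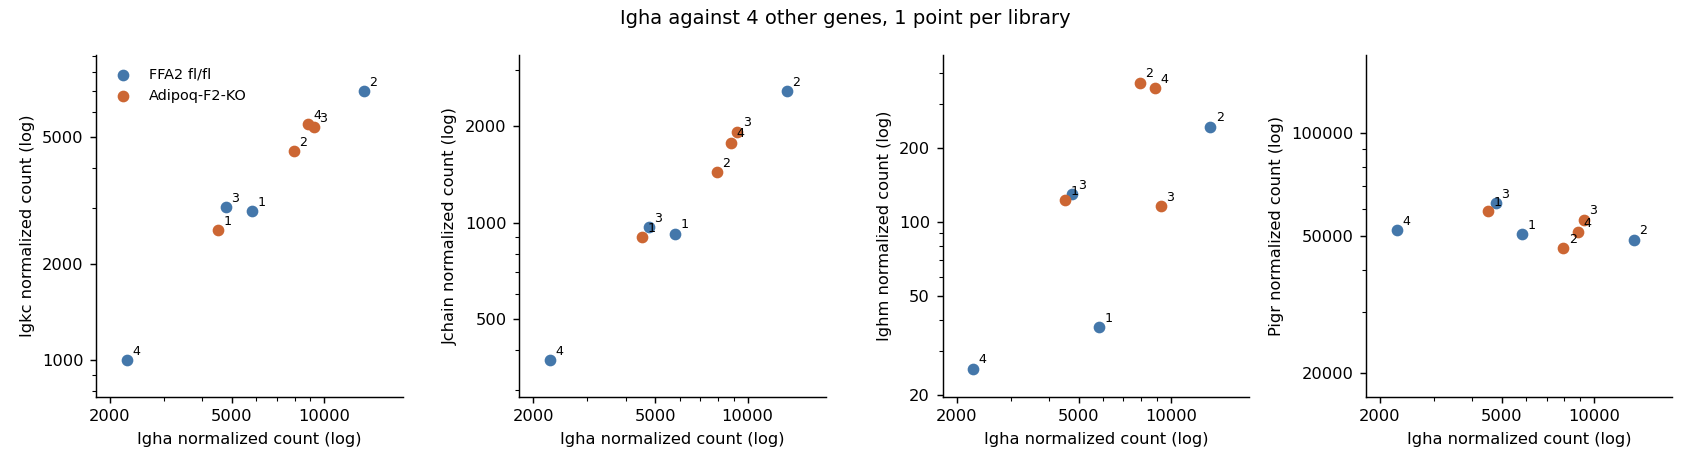
Igha normalized count (log axis) against Igkc, Jchain, Ighm and Pigr (log axes), 1 numbered point per library. The points for Igkc and Jchain lie along a line from floxed library 4 to floxed library 2 (r = 0.985 and 0.989), those for Ighm scatter more widely (r = 0.742), and Pigr stays within a narrow band.

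Ighm, Ighd and Ighg2b rose and fell with a second group of genes, the markers of B cells before they become plasma cells. The B cell list held 12 genes, such as Ms4a1 and Cd79a, and none of them was at or under 3 counts in every library. Their summed normalized count was 52.6 to 647 in the floxed controls and 270.0 to 921 in Adipoq-F2-KO. All 10 that were tested had a log2 fold change above 0 (median 1.17), and none of the 10 had an adjusted or an unadjusted p below 0.05 in DESeq2. The B cell score was −1.97, 1.47, −0.61 and −2.75 in floxed libraries 1 to 4 and 0.20, 1.96, 0.27 and 1.43 in Adipoq-F2-KO libraries 1 to 4. One knockout (1 of 4) had more than every control, and floxed libraries 1 and 4 had the least.

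The following 4 relations with that score were added after the data had been seen. Ighm had r = 0.977 (exact permutation p = 5.0e-04, adjusted over the 4 relations 6.6e-04; rho = 0.881, adjusted p = 0.0097), and r = 0.904 once floxed libraries 1 and 4 were left out (exact permutation p = 0.0611). Ighd had r = 0.976 (exact permutation p = 1.2e-04, adjusted 2.5e-04; rho = 0.976, adjusted p = 7.9e-04), and 0.930 without floxed libraries 1 and 4 (exact permutation p = 0.0181). Ighg2b had r = 0.975 (exact permutation p = 1.2e-04, adjusted 2.5e-04; rho = 0.976, adjusted p = 7.9e-04), and 0.972 without floxed libraries 2 and 4 (exact permutation p = 0.0014). Within each genotype these 3 values lay between 0.963 and 0.989. Igha had r = 0.801 (exact permutation p = 0.0151, adjusted 0.0151; rho = 0.738, adjusted p = 0.0458), which no longer held at 0.559 without floxed libraries 2 and 4 (exact permutation p = 0.267). Whether the coefficients of Ighm and Igha differ was not tested. Other scores shared the low libraries. The macrophage and stroma scores were also lowest in floxed library 4 (−1.37 and −1.78), followed by floxed library 1 (−0.52 and −1.53). Relations of these heavy chain genes with those scores were not tested, so the relation is not shown to be particular to B cells.

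**Figure D5:**
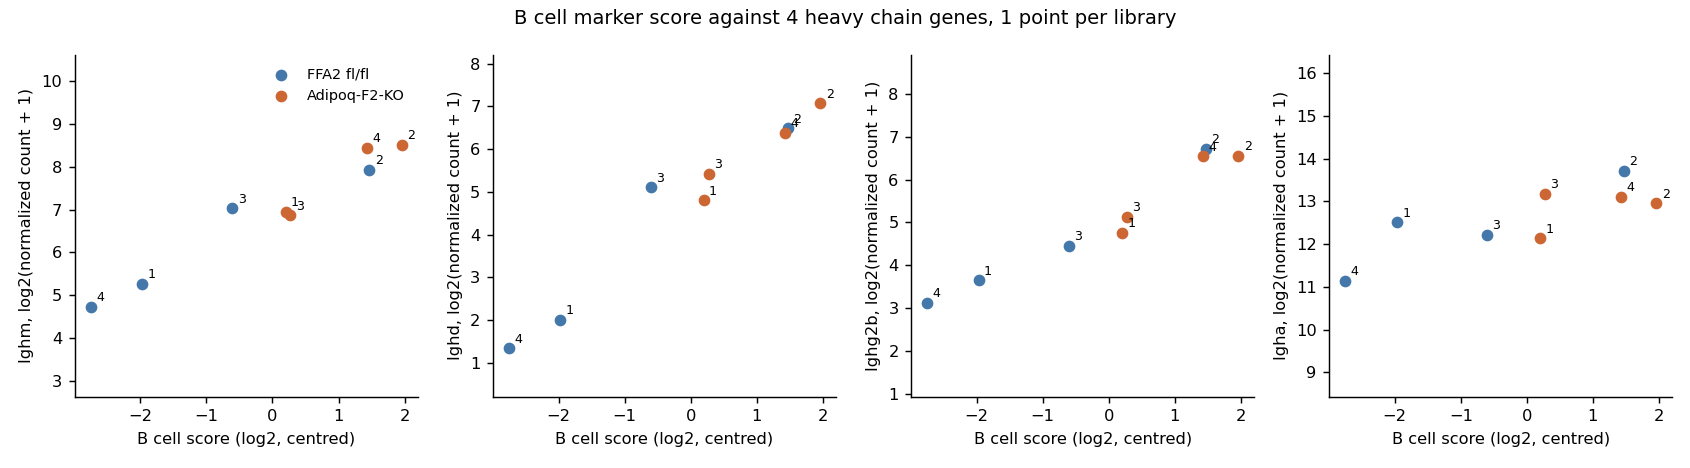
B cell marker score (mean of centred log2 values, x axis) against log2(normalized count + 1) of Ighm, Ighd, Ighg2b and Igha, 1 numbered point per library and the same span of 8 log2 units on each y axis. Ighm, Ighd and Ighg2b run along a line (r = 0.977, 0.976 and 0.975), and Igha less closely (r = 0.801).

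The B cell score was added to the DESeq2 fit as a covariate, also after the data had been seen. In that fit the estimates of all 7 chain genes and Jchain were below 0. The log2 fold change was −0.40 for Igha, −0.10 for Ighm, −0.18 for Ighd, −0.09 for Ighg1 and −0.49 for Ighg2b. It was −0.30 for Igkc, −0.54 for Iglc1 and −0.31 for Jchain, and 0.06 for Pigr. None passed (adjusted p = 0.9997 for all 9). The score is itself measured in these libraries and differed between genotypes, with a mean of −0.97 in the controls and 0.97 in the knockouts. This fit therefore cannot separate the score from genotype, and the part of B cells in the values of the chain genes was not tested. Other immune lists also had more estimates above 0 than below, beside 48.5% above 0 among all tested genes. Of 9 macrophage markers tested, 9 were above 0 with none passing, and of 12 T cell markers 10 were. Only before adjustment did Cd4 (1.10, SE 0.38) and Cd2 (1.35, SE 0.60) of the T cells and Lyz2, a lysozyme of macrophages (0.95, SE 0.39), have a p below 0.05 (DESeq2 adjusted p = 0.976 for Cd4 and 0.9998 for Cd2 and Lyz2), as had 3.03% of all tested genes. The 12 smooth muscle markers were all below 0, with a median of −0.91, and none of the 12 passed. Their score ran the other way, with a mean of −0.19 in the controls and 0.19 in the knockouts, since floxed library 3 had the highest score of all 8 (3.15) and floxed libraries 1 and 4 the lowest (−2.35 and −2.43).

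Genes that plasma cells need were described from lists. Of 22 genes for plasma cell differentiation and secretion, such as Xbp1, Prdm1 and Irf4, 20 were tested, 12 with a log2 fold change above 0 and 8 below, median 0.06. None passed in DESeq2 in either direction, and none of the 20 had an unadjusted p below 0.05. Their summed normalized count was 15851 to 19519 in the floxed controls and 16096 to 17674 in Adipoq-F2-KO. Epithelial cells use much of this secretory machinery too, and the sum is led by such abundant genes. Scarcer members varied more: Irf4 ran from 17.0 to 86.5 normalized counts over the 8 libraries, and Pou2af1 and Tnfrsf13b, named after their values were seen, from 9.29 to 102 and from 10.3 to 52.6. Their log2 fold changes were 0.64 (SE 0.44), 0.71 (SE 0.63) and 0.72 (SE 0.49), and none passed (DESeq2 adjusted p = 0.9998). Of 11 genes for the homing of plasma cells to the gut, 10 were tested (8 above 0, 2 below), and 0 had an adjusted or an unadjusted p below 0.05 in DESeq2.

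Of 20 genes that drive switching to IgA or keep plasma cells alive, 10 were tested, 6 above and 4 below 0, and 0 passed, with 1 at an unadjusted p below 0.05 (3.03% of all tested genes). Nos2, named after its values were seen, is 1 of the 4 below 0 and was given no p by DESeq2, so that 9 of the 10 could pass. The nearest was Tnfsf13, which encodes APRIL, a ligand of BCMA. It had 264, 225, 142 and 266 normalized counts in the floxed controls and 183, 197, 140 and 115 in Adipoq-F2-KO. Below every control were 2 of the 4 knockouts, and the log2 fold change of −0.49 (SE 0.24), with an unadjusted p below 0.05, did not pass after adjustment (DESeq2 adjusted p = 0.9998). Of 17 genes that induce Pigr or encode other antibody receptors, 14 were tested and 0 passed, with 9 above and 5 below 0 and 1 at an unadjusted p below 0.05. Irf1, an interferon-responsive factor known to induce Pigr, had 1040, 1099, 1637 and 1644 normalized counts in the floxed controls and 1675, 1938, 1750 and 1842 in Adipoq-F2-KO. Each of the 4 knockouts was above every control, but the log2 fold change of 0.41 (SE 0.17), with an unadjusted p below 0.05, did not pass after adjustment (DESeq2 adjusted p = 0.9998). Of all tested genes 2.12% did not overlap between the groups and 3.03% had an unadjusted p below 0.05. Pigr beside it stood at −0.01. Of 7 germinal centre genes 4 were tested, with a median log2 fold change of 0.05, and 0 had an adjusted or an unadjusted p below 0.05.

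On the RPKM scale, a count divided by the exon length of its gene and the total of its library, Pigr had the highest level, at 1111 ± 82.5 (mean and SD over 8 libraries). Igkc came next at 632 ± 316 and was above Pigr in floxed library 2, where it reached 1147, and below it in the other 7. Igha stood at 225 ± 115, Iglc1 at 71.4 ± 45.8 and Jchain at 45.5 ± 24.3, and each of these was above the next gene in 8 of 8 libraries. Ighm followed at 7.78 ± 6.01. Ighd at 2.31 ± 2.14 was above Ighg2b at 1.55 ± 1.32 in 6 of 8 libraries, so their order is within their spread. Ighg1 at 0.530 ± 0.507 and Mzb1 at 0.0764 ± 0.0639 were the lowest, and Ighg1 was above Mzb1 in 6 of 8. All heavy and light chain constant region genes together took 0.0289% to 0.193% of a library's counts, their variable segments 0.00679% to 0.0400%, and Pigr alone 0.410% to 0.498%.

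The chain genes were among the most variable genes of the tissue. The SD of log2 values within a genotype was 0.82 for Igha, 0.88 for Jchain, 0.89 for Igkc, 0.87 for Iglc1, 1.24 for Ighm and 1.88 for Ighd. Of the 10225 genes with a mean normalized count of at least 50, between 97.2% and 99.4% had a smaller SD than these 6, and the median gene had 0.21. Pigr, with 0.16, had a larger SD than 30.8% of them.

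The tested genes most like a member over the 8 libraries, leaving out antibody gene segments, are given as a description. For Igha they were Jchain (r = 0.989), Cnot11 (0.932), Csf1r (0.910), Col6a4 (0.908) and Prkg2 (0.901), and these were the only 5 of 10207 genes above 0.9. For Ighm they were Bank1 (0.988), Dock4 (0.981), Fam49b (0.980), Pold4 (0.970) and Cd37 (0.968), with 29 genes above 0.9. Bank1 and Cd37 are also on the B cell list. For Pigr they were Rbm5 (0.957), Ccdc47 (0.956), Usp15 (0.952), 1700020I14Rik (0.949) and Prep (0.948), with 46 of 10206 genes above 0.9. The points share libraries, depth and size factors.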

How the data were processed

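Jejunal mucosa of 4 FFA2 fl/fl and 4 Adipoq-F2-KO mice was sequenced from polyadenylated RNA (stranded libraries, single reads of 75 bases). The authors trimmed the reads with Trimmomatic, aligned them with STAR and counted reads per gene with featureCounts, and the deposited values are these raw counts. The submitters' processing notes name the builds GRCm38 and mm10, while versions, annotation release and the strand and overlap settings of the counting are not given in the sources used here. Genes were named, placed and measured in length with GENCODE M21 (GRCm38), which held 52125 of the 56980 identifiers.

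Groups and replicate numbers came from the sample titles. Each library is taken as 1 mouse, and p-values measure the spread between these libraries. A gene was tested if 4 or more libraries held 10 or more counts of it, with DESeq2 1.42.0 in R 4.3.3 (default size factors, two-sided Wald test, Benjamini-Hochberg adjustment over all 15986 tested genes), as the study used DESeq2. edgeR 4.0.16 and limma 3.58.1 (voom) were alternatives. Ratios used raw counts with a pseudocount of 0.5 on the log scale, and exact permutation tests over libraries. Correlations used log2(normalized count + 1). Counts of 3 or fewer were taken as the floor. Wilson binomial intervals (95%) and floors cover counting error only, since reads carried no molecular identifiers. No pair of libraries was a duplicate (chi-square per gene 3.64 to 36.6). The fit was tested on simulated data.

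The members and lists were chosen with earlier results of these data known. All members and other constant region genes were named. In each list up to 3 genes with an unadjusted p below 0.05 were named, and for Igha, Ighm and Pigr the 5 genes most like them with a mean of at least 50. List examples and the plasma cell factors Xbp1, Prdm1 and Irf4 are named as members of their lists.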

Additional observations from a re-analysis of the deposited data

Results flagged for a closer look

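In 3 of 28 groups of 4 libraries examined, 1 library stood apart by a gap that took more of the group's range than Dixon's 95% critical value allows, and each time it was floxed library 2. Its normalized count was 104 for Ighg2b, with a gap of 0.864 of the range. It was 37.9 for Ighg1 (0.862) and 903 for Iglc1 (0.833). If values were normally distributed, chance alone would give such a gap in about 5% of groups. These normalized counts were not log-transformed, so that rate may not hold for them, and the gaps were not tested on the log2 scale. The genes are also not independent of each other. This library was the deepest, with 21712776 counts, and had the second highest B cell score, 1.47. The part of either in these values was not tested.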

How the results depend on the processing

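Under the alternatives, no member other than Ighg2b without floxed library 2 (2.29, adjusted p = 0.0405) passed the adjusted threshold. The direction of the smaller effects was not stable. Log2 fold changes changed sign among the 5 libraries above 10000000 counts for Igha (−0.21), Igkc (−0.044), Iglc1 (−0.26), Jchain (−0.15) and Pigr (0.058). In edgeR Iglc1 stood at −0.0015. With the B cell score as a covariate, added after seeing the data, the values were −0.40 for Igha, −0.10 for Ighm, −0.18 for Ighd, −0.092 for Ighg1, −0.49 for Ighg2b, −0.30 for Igkc, −0.54 for Iglc1, −0.31 for Jchain and 0.062 for Pigr. Leaving out 1 library at a time, the range was −0.069 to 0.83 for Igha, −0.27 to 0.93 for Iglc1 and −0.064 to 0.075 for Pigr, with changes of sign. It was 0.057 to 0.95 for Igkc, 0.019 to 1.00 for Jchain and 0.41 to 2.29 for Ighg2b, without one. It was 0.80 to 1.91 for Ighm, 0.67 to 2.57 for Ighd and, where it was tested, 0.34 to 0.95 for Ighg1, also without one. The lows of Igha, Igkc, Jchain, Iglc1, Ighm and Ighg2b were without floxed library 4. That of Ighd was without Adipoq-F2-KO library 2 and that of Ighg1 without floxed library 1. Leaving out 1 library, the difference in the Igha share ranged from −3.26 to −1.57 points (−3.71 in the libraries above 10000000 counts). The low, without Adipoq-F2-KO library 3, was past the threshold only before adjustment over the ratios, which was not made for the alternatives. The difference in the kappa share ranged from −1.27 to 1.31 points (0.82 with Iglc1 as the only lambda gene) and that in Jchain over Igha from 0.087 to 0.21. That in Igha over the plasma cell reference ranged from 0.29 to 0.62 (0.16 in the libraries above 10000000 counts), and that in Pigr over the epithelial genes from −0.13 to 0.013. The correlation of Igha with Ighm ranged from 0.504 to 0.822 (0.471 without both extreme libraries) and that with smooth muscle from 0.198 to 0.806 (0.162 without the extremes, 0.83 in the libraries above 10000000 counts). The count of all tested genes with an adjusted p below 0.05 was 6 in DESeq2, 2 in edgeR, 1 in limma-voom, 3 with all genes with a count, 81 in the deep libraries, 2 with the B cell covariate, and from 1 to 108 (without floxed library 3) when 1 library was left out. The causes of these changes were not tested.

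The replicate numbers did not pair the libraries: same-numbered deviations correlated at 0.542, 0.294, 0.0113 and −0.42, and 4 of 8 libraries correlated best with their own number. With the number as a replicate block, 11 genes passed in place of 6 and no member did (Ighd 2.16, adjusted p = 0.83; Igha 0.44, adjusted p = 0.99998). Ighg1 was at 1.58 and Iglc1 at 0.46 in that fit. Before adjustment Ighd and Ighg2b had a DESeq2 p below 0.05 with the block, as had Ighm with the smooth muscle score as a covariate. The shares of all genes below 0.05 in those fits are not given here. With a block of 4 pairs an exact p cannot go below 0.125. Dropping the pseudocount was not possible for Igha over the plasma cell reference, which held counts of 0. A filter of 20 counts in every library left out Ighd, Ighg1 and Ighg2b. Counts of Ighd, Ighg1 and Mzb1 at or under the floor limit their precision.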

Other observations

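The constant region genes outside the 10 were low or followed the same libraries. Iglc3 had 13.9, 148, 18.8 and 16.3 normalized counts in the floxed controls and 40.3, 144, 46.0 and 165 in Adipoq-F2-KO. Its log2 fold change of 1.00 (SE 0.95) did not pass (DESeq2 adjusted p = 0.9998), and neither did that of Iglc2, 0.69 (SE 0.64). Floxed library 2 was again the highest control for both. Of the exon bases of Iglc3, 93 overlap the antisense gene 2010309G21Rik, which had 14 counts over all libraries. Ighg3 had at most 18 raw counts in any library and Ighg2c at most 11, in both cases in floxed library 2. Ighe, the IgE heavy chain, had 1 count in each of floxed library 2 and Adipoq-F2-KO library 1 and 0 in the others, and Iglc4 had at most 2, so neither was above the floor of 3 counts.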
